A study of Homo sapiens with 4 samples.

Results

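Promoter accessibility was examined for 8 genes that lie near each other on chromosome 19, out of 28775 genes in the promoter count table. They were ACP4, the kallikrein genes KLK1, KLK15, KLK3, KLK2 and KLK4, and the neighbours GPR32 and SHANK1, each found by its Entrez identifier with no filter on low counts. ACP4 was selected because its promoter lost counts in the comparison described here, so its values in that comparison are a description and carry no test. The other 7 were selected because they lie near ACP4, with earlier results of these data known.

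The measurements were made by ATAC-seq, in which the Tn5 transposase cuts open DNA and adds sequencing adapters to it. HEK293T cells, an established line derived from human embryonic kidney, were given lipofectamine in both groups. In overexpression (n = 2 libraries) it was used to transfect a pBacMam plasmid that carries MORC2 fused to the fluorescent protein meGFP. The other group was the control (n = 2 libraries). MORC2 is an ATPase that compacts DNA, and the endogenous MORC2 gene was wild type in both groups. The series names its control lipofectamine-only and mentions no empty plasmid, so effects of MORC2 and of taking up a plasmid cannot be told apart. The labels do not state whether the replicates came from separate cultures, so p-values measure the spread between these libraries only. In bulk libraries, fewer cells with an open promoter and a less open promoter in each cell cannot be told apart. A promoter count does not measure how much MORC2 protein the cells made.

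Kallikreins are secreted serine proteases encoded by the largest contiguous cluster of protease genes in the human genome, and several of them are made in the prostate. KLK3, known as prostate-specific antigen, and its close relative KLK2 are the best known of these. ACP4 encodes a membrane-bound acid phosphatase named for its expression in testis, and inherited loss of ACP4 or of the enamel protease KLK4 causes defective tooth enamel. KLK1 is also known as a product of the kidney.

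The ACP4 promoter and that of SMIM47, the gene beside it on the opposite strand, had the lowest log2 fold changes of their abundance classes, and the promoters of KLK3 and KLK2 were the most alike of those compared. These 4 are given as the 250 bases before the annotated start, 5′ to 3′, from RefSeq on GRCh38.p14, with matches to 3 motifs in capitals: AGAACA, a hexamer of glucocorticoid response elements, GGGCGG, a box bound by SP1, and TATAAA, the TATA box (TTTATA on the other strand). The start positions belong to that assembly, whereas the reads were aligned to CHM13.
ACP4 (chr19:50790165-50790414, plus strand): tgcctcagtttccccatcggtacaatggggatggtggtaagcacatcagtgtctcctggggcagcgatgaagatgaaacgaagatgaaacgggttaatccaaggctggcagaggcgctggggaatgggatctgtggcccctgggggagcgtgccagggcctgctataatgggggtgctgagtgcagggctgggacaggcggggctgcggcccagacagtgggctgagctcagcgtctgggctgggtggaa
SMIM47 (chr19:50786161-50786410, minus strand): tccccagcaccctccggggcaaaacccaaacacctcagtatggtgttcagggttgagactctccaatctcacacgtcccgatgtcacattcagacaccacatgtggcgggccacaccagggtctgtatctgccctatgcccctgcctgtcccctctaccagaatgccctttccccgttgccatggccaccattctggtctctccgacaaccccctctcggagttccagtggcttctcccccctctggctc
KLK3 (chr19:50854665-50854914, plus strand): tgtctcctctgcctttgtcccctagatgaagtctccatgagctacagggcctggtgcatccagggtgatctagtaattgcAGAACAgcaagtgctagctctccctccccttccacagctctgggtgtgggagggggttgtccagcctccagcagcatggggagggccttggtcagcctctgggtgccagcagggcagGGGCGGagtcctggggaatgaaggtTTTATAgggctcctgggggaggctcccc
KLK2 (chr19:50873189-50873438, plus strand): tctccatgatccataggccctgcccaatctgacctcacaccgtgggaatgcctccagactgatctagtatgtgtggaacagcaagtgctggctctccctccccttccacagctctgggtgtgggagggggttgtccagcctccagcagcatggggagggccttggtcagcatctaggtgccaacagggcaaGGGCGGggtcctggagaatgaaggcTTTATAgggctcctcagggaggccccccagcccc

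Neither of the first pair of sequences held any of these motifs or the GATA motif AGATAA, on either strand. The KLK3 sequence held all 3, with AGAACA at −170, GGGCGG at −53 and TTTATA at −28 counted back from the start. In KLK2 the box GGGCGG was at −59 and TTTATA at −34, and the letters AGAACA were not in the window. Over the 300 bases of the RefSeq promoter table, KLK3 and KLK2 matched at 239 of 306 aligned columns (78.1%), against 49.2% for the next most alike pair, ACP4 and the first of the KLK15 starts. Among 35116 promoters of that table, 14.8% held AGAACA on either strand, 11.5% TATAAA, 45.0% GGGCGG and 10.3% AGATAA. The second KLK15 start held TATAAA at −30, and neither KLK4 start held any of the 4 motifs. A match describes letters and does not show that a factor binds there.

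By base composition the ACP4 promoter stood above those of its kallikrein neighbours in CpG content. It held 10 CpG sites in 300 bases, against 1 to 4 in the kallikrein promoters, 7 in SMIM47 and a median of 14 over all promoters of the table. Its GC content of 62.7% was close to the median of 58.7%. The lowest observed over expected ratio of CpG among these promoters was 0.0358, at the second KLK4 start, and the highest was 0.363, at ACP4, with a median of 0.579 over the table.

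Counts over all promoters ranged from 3734519 to 10255182 per library. Mitochondrial promoters held 51.9% to 55.6% of counts in control and 73.8% to 74.7% in overexpression, and the median count of a nuclear promoter lay between 23 and 98. Levels are given as TMM-scaled CPM, which are counts in proportion to a library total that the TMM method corrects for composition, and since each promoter was a 2 kb window they can be compared between genes per length. Control levels at 7 promoters of genes that HEK293T uses ran from 3.61 at PAX2 to 56.3 at GAPDH. VIM was at 51.5, but KRT8 at 5.98 and KRT18 at 6.52 were below the median of all promoters, 7.12. Those of 4 blood markers ran from 0.491 at PTPRC to 3.69 at SPI1, so the ranges of these lists overlapped. Prostate marker promoters were at 9.74 for HOXB13, 2.66 for TMPRSS2 and 1.85 for FOLH1 in control.

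In control cells the 8 promoters covered a wide range of levels, with ACP4 at the top and GPR32 at the bottom. ACP4 was at 15.2 ± 2.33 TMM-scaled CPM (SD, n = 2), at percentile 65.8 of all promoters by control level. KLK4 followed at 11.5 ± 0.598, SHANK1 at 4.93 ± 0.704, KLK1 at 3.30 ± 0.113 and KLK15 at 2.53 ± 0.165. KLK2 was at 2.30 ± 0.0195, KLK3 at 1.86 ± 0.507 and GPR32 at 0.984 ± 0.381. The values of each neighbouring pair in this order did not overlap between the control libraries, although KLK15, KLK2 and KLK3 were less than 1 TMM-scaled CPM apart. In overexpression cells KLK4 was highest and ACP4 second, with overlapping values, followed by SHANK1, KLK1, KLK15, KLK3, KLK2 and GPR32. Values of each neighbouring pair in this order overlapped from KLK4 down to KLK3, whereas those of KLK3, KLK2 and GPR32 were separate.

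ACP4 had 190 counts in control replicate 1 and 175 in control replicate 2, against 34 in overexpression replicate 1 and 24 in overexpression replicate 2. As TMM-scaled CPM these were 13.6 and 16.9 in control and 6.36 and 8.25 in overexpression. The groups did not overlap, and the lowest control value was above the highest overexpression value by more than either group's SD. The mean went from 15.2 ± 2.33 to 7.30 ± 1.33 (SD, n = 2), a control level 2.09 times that of overexpression. In the edgeR fit the log2 fold change was −1.09 (SE 0.198), and the 4 ratios of single libraries across groups ran from −1.41 to −0.72 on the log2 scale. Within groups the log2 ratio of replicate 2 over replicate 1 was 0.31 in control and 0.37 in overexpression.

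**Figure D1:**
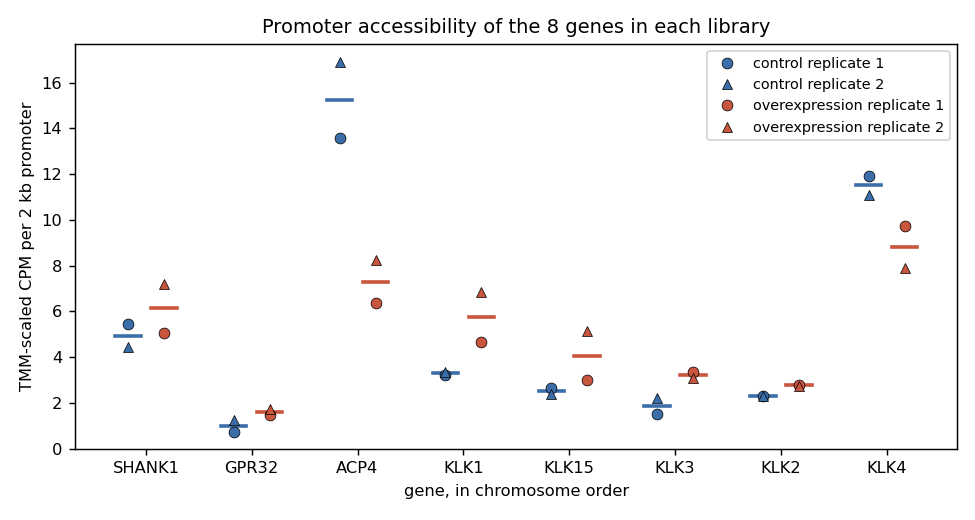
Accessibility of the 8 promoters in each library, in TMM-scaled CPM per 2 kb promoter (vertical axis, from 0), with genes in chromosome order; points are single libraries (circle for replicate 1, triangle for replicate 2, blue for control, red for overexpression) and horizontal bars are means. ACP4 falls from 13.6 and 16.9 to 6.36 and 8.25, and KLK4 is the other promoter with both overexpression points below both control points.

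Among 23407 promoters tested, 49 had a log2 fold change at or below that of ACP4, itself included, and 1 of these, ACP4, had a mean count as high as its 105.75. Promoters were divided into 4 classes of equal size by mean abundance, and ACP4 had the lowest log2 fold change of the 5851 in the third class, where the median was −0.05. Of the 307 promoters that fell past the threshold, 3 did so by at least 1 on the log2 scale: ACP4, LINC01871 and NKX2-4.

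**Figure D2:**
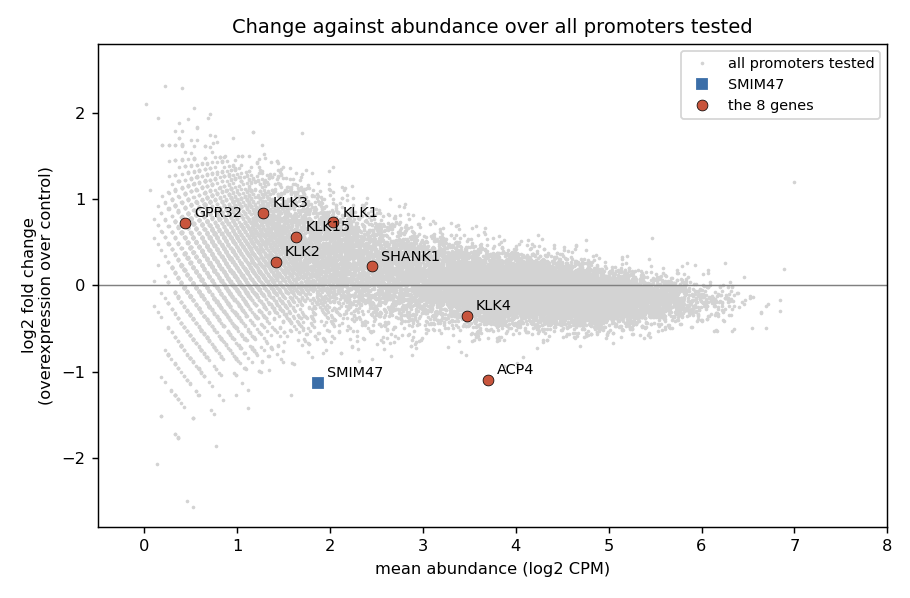
Log2 fold change of overexpression over control (vertical axis) against mean abundance in log2 CPM (horizontal axis) for all promoters tested (grey points), with the 8 genes in red and SMIM47 as a blue square. ACP4, at −1.09, and SMIM47, at −1.13, lie below the bulk of grey points of like abundance, whereas the kallikreins of low abundance lie above 0 among many others.

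A count of 1 of the 8 promoters passed an edgeR adjusted p of 0.05 (Benjamini-Hochberg over all promoters tested), against 2.47% of all promoters tested. That promoter was ACP4, which fell, as did 1.31% of all, and because it was selected on this contrast nothing is read from the count. Without overexpression replicate 1 the log2 fold change of ACP4 was −0.87 and 0 of the 8 passed the edgeR threshold. Of the 8, 0 rose, against 1.16% of all promoters. All 8 were retained by the filter on low counts.

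Of the 7 promoters selected by position, 0 passed the edgeR adjusted p of 0.05, against 579 of all 23407 tested. With limma-voom 0 of the 7 passed, against 720 of all. With DESeq2 without independent filtering 0 of the 7 passed, against 52 of all. An unadjusted edgeR p under 0.05 was reached by 2 of the 7, KLK1 and KLK3, both higher in overexpression. Of all 23407 promoters tested, 2023 were higher and 2010 lower at that p. In the lowest abundance class 1030 of 5852 were higher at that p, and in the next 737 of 5852. Both overexpression libraries were above both control libraries at 5 of the 7, against 24.8% of all promoters tested, and below them at 1, KLK4, against 24.9%. All 7 lay in the 2 lowest abundance classes. There 44.1% (lowest class) and 35.3% (next class) of promoters were higher in both overexpression libraries, and 7.33% and 11.9% were lower. Their median log2 fold change was 0.57, where that of all promoters was 0.0095 and those of the same 2 classes were 0.39 and 0.13. With library totals in place of TMM the median over all promoters moved to −0.79 and that of the 7 to −0.22. Of the 7, 1 was then above 0 and 6 were above the median of all. KLK4 alone of the 7 then passed the edgeR threshold, as lower, as did 16274 of all 23407 promoters tested. With loess scaling on abundance the median of the 7 was 0.18, with 4 of the 7 above 0 and above the median of all.

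KLK4, the protease that clears enamel proteins, was the member nearest to ACP4 in level and the other one whose groups were lower in overexpression. It had 167 and 115 counts in control against 52 and 23 counts in overexpression, or 11.9, 11.1, 9.73 and 7.90 TMM-scaled CPM. The groups did not overlap, and the mean went from 11.5 ± 0.598 to 8.81 ± 1.29 (SD, n = 2). This was a log2 fold change of −0.35 (SE 0.196), and its edgeR adjusted p was 0.344, so the difference did not pass the threshold. It was the 282nd lowest of 5852 promoters in its abundance class.

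KLK1, the tissue kallikrein that releases kinins, had 45 and 35 counts in control against 25 and 20 counts in overexpression. In TMM-scaled CPM these were 3.22 and 3.38 against 4.68 and 6.87, with both overexpression libraries higher. In log2 terms KLK1 differed by 0.73 (SE 0.294, edgeR adjusted p 0.155), and by −0.056 with library totals. KLK15, a protease that can activate the precursor of prostate-specific antigen, had 37 and 25 counts in control against 16 and 15 counts in overexpression. Its levels were 2.64 and 2.41 against 2.99 and 5.15 TMM-scaled CPM, so that overexpression replicate 2 carried most of the difference. Its log2 fold change of 0.57 (SE 0.345, edgeR adjusted p 0.393) turned to −0.22 with library totals.

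KLK3 had 21 and 23 counts in control against 18 and 9 counts in overexpression, or 1.50, 2.22, 3.37 and 3.09 TMM-scaled CPM. The overexpression libraries were both higher, with a log2 fold change of 0.85 (SE 0.385) and an edgeR adjusted p of 0.223. For KLK3 the log2 fold change was 0.047 with library totals and 0.43 with loess scaling. KLK2, whose protease also activates the precursor of prostate-specific antigen, had 32 and 24 counts in control against 15 and 8 counts in overexpression. Its levels were 2.29 and 2.31 against 2.81 and 2.75 TMM-scaled CPM, with the replicates of each group close together. The log2 fold change of 0.27 (SE 0.385) had an edgeR adjusted p of 0.761 and was −0.52 with library totals and −0.14 with loess scaling on abundance. The counts of KLK3 and KLK2 were 8 to 32 per library, and whether their log2 fold changes differ was not tested.

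GPR32, a receptor for lipid mediators that resolve inflammation, had the lowest counts, 10 and 13 in control and 8 and 5 in overexpression. Its levels were 0.715 and 1.25 against 1.50 and 1.72 TMM-scaled CPM, with the overexpression libraries higher. For GPR32 the log2 fold change was 0.73 (SE 0.530, edgeR adjusted p 0.494), and −0.065 with library totals. On 5 to 13 counts per library the difference did not pass the threshold. SHANK1, a scaffold protein of the postsynaptic density, had 76 and 46 counts in control against 27 and 21 counts in overexpression, or 5.43, 4.44, 5.05 and 7.22 TMM-scaled CPM. The groups overlapped, with a log2 fold change of 0.22 (SE 0.264, edgeR adjusted p 0.711). It was −0.57 with library totals and −0.014 with loess scaling.

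Shares of counts within a library do not depend on how libraries are scaled. ACP4 held 32.9% of the 578 counts over the 8 promoters in control replicate 1 (95% Wilson interval from 29.2% to 36.8%) and 38.4% of 456 in control replicate 2 (34.0% to 42.9%). In overexpression it held 17.4% of 195 (12.8% to 23.4%) and 19.2% of 125 (13.3% to 27.0%). The share was lower in both overexpression libraries, which follows the choice of ACP4 and is no test. KLK4 held 28.9% and 25.2% in control and 26.7% and 18.4% in overexpression, and these groups overlapped. KLK1 held 7.79% and 7.68% in control against 12.8% and 16% in overexpression, and the share of each of the other genes except ACP4 and KLK4 was likewise higher in both overexpression libraries. Shares add to the whole, so a lower share of ACP4 raises the others, and the intervals cover counting error only.

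**Figure D3:**
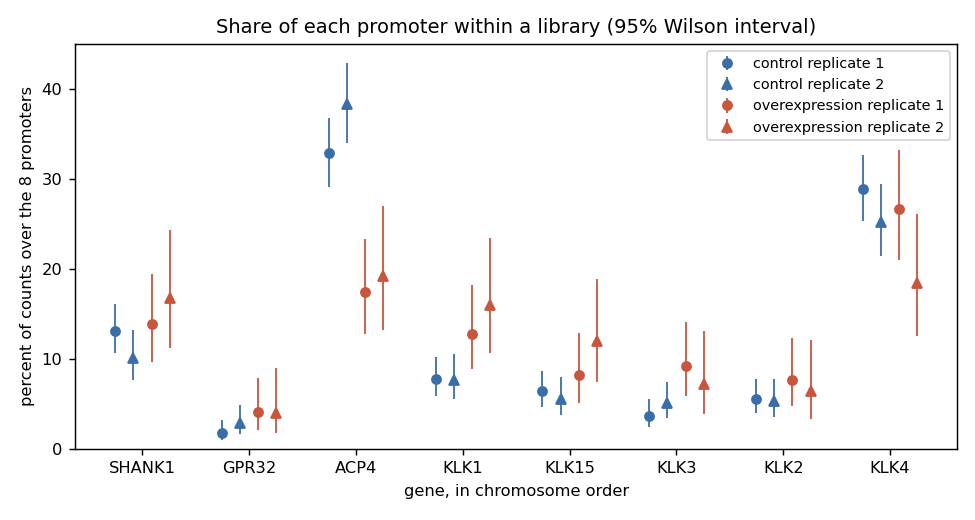
Share of each promoter in the summed counts of the 8 promoters (vertical axis, percent, from 0), with genes in chromosome order, 1 point per library and 95% Wilson intervals as bars. ACP4 takes 32.9% and 38.4% in the control libraries (blue) and 17.4% and 19.2% in the overexpression libraries (red).

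The genes around ACP4 were read in the order of the RefSeq gene table. SMIM47, which encodes a small membrane protein and lies directly before ACP4 on the opposite strand, was named after its values were seen. It had 50 and 47 counts in control against 9 and 6 counts in overexpression. Its level was 4.05 ± 0.678 TMM-scaled CPM in control and 1.87 ± 0.267 in overexpression (SD, n = 2), and the groups did not overlap. SMIM47 differed by −1.13 on the log2 scale (SE 0.384), the lowest of the 5852 promoters in its abundance class, with an edgeR adjusted p of 0.0825. The adjusted p of SMIM47 in edgeR was 0.0382 with loess scaling. It was 1.96e-06 with library totals, where 16274 of all 23407 promoters tested fell past the threshold. The other alternatives on all 4 libraries that tested SMIM47 gave an adjusted p above 0.05. These ran from 0.0709 with no filter on low counts to 0.748 with DESeq2 without independent filtering. With 1 library left out its log2 fold change ran from −1.31 to −0.96. On GRCh38.p14 no start of this gene lies within 2 kb of the ACP4 start, but the windows on CHM13 were not analysed here, so whether some fragments were counted for both was not tested.

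On the other side of ACP4 lies the pseudogene C19orf48P, with 242 and 136 counts in control against 74 and 43 counts in overexpression. Its level was 15.2 ± 2.96 TMM-scaled CPM in control, the same as that of ACP4, and 14.3 ± 0.659 in overexpression (SD, n = 2). The groups overlapped, with a log2 fold change of −0.12 (SE 0.162) and an edgeR adjusted p of 0.738. CLEC11A, the gene of a secreted growth factor of bone and blood precursors, lies between SHANK1 and GPR32. It had 399 and 293 counts in control against 103 and 67 counts in overexpression, and it fell by 0.46 on the log2 scale (SE 0.135, edgeR adjusted p 0.0398). In each of the fits that left out 1 library CLEC11A had an edgeR adjusted p above 0.05, from 0.0835 to 0.480.

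Between SHANK1 and KLK4 lay 9 genes of the table that are not among the 8, and all were tested. Of these 1 fell, CLEC11A, against 1.31% of all promoters and 261 of the 5852 in its abundance class, the highest. Of the 9, 0 rose, against 1.16% of all promoters. In both overexpression libraries 3 of the 9 were lower, against 24.9% of all, and 0 were higher, against 24.8%. Most of the 9 lay in the second lowest abundance class, where 11.9% were lower and 35.3% higher. The median log2 fold change of the 9 was −0.09. Of the 20 genes before SHANK1, 16 were tested and 0 passed the threshold, against 2.47% of all promoters. At an unadjusted edgeR p under 0.05, 1 of the 16 was higher and 3 were lower, against 2023 higher and 2010 lower of all 23407 tested. Among these 3, GARIN5A (191, 172, 52 and 37 counts) and EMC10 (189, 168, 52 and 36 counts) had nearly the same counts in every library. Whether windows of neighbouring genes in this stretch share fragments was not tested. Of the 20 genes after KLK4, 18 were tested, 3 rose, against 1.16% of all promoters, and 14 were higher in both overexpression libraries, against 24.8% of all and 44.1% of the lowest abundance class, where most of them lay. Their median was 0.74, against 0.39 for that class. The genes next to the stretch were C19orf81 before SHANK1, with a log2 fold change of 0.25 (edgeR adjusted p 0.700), and KLK5 after KLK4, with 0.61 (edgeR adjusted p 0.364). The highest control level in this stretch was 34.8 TMM-scaled CPM at JOSD2, where the log2 fold change was 0.07 (edgeR adjusted p 0.796). Over all of chromosome 19, 57 of 1543 promoters passed the threshold (3.69%), of which 26 rose and 31 fell.

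**Figure D4:**
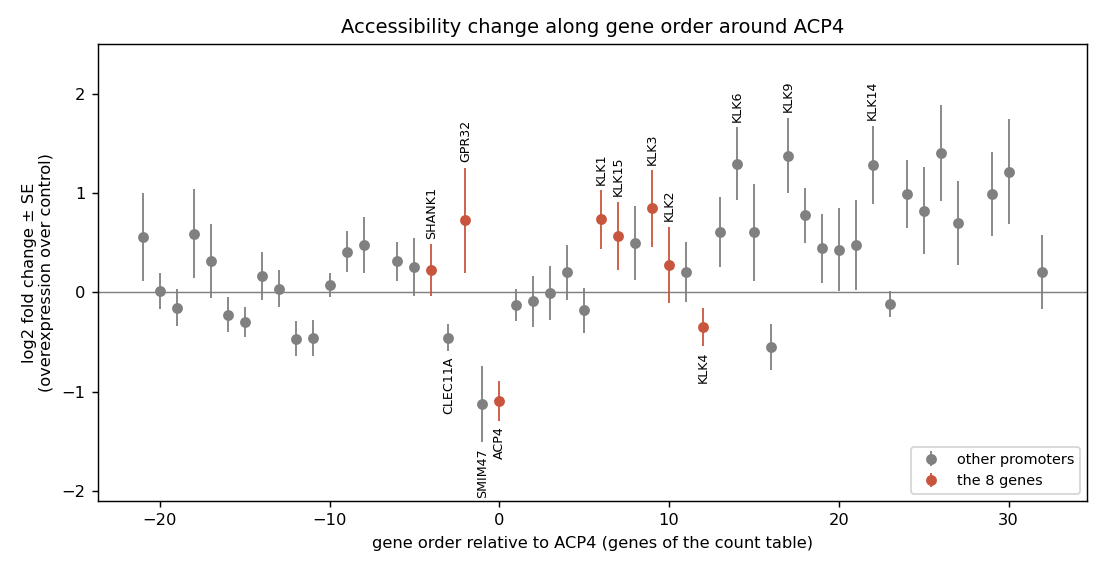
Log2 fold change of overexpression over control with its SE (vertical axis) for each tested promoter by gene order from ACP4 (horizontal axis, genes of the count table), with the 8 genes in red and other promoters in grey; labels mark the 8 genes, SMIM47 and the promoters past the threshold. ACP4 (−1.09) and SMIM47 (−1.13) are the lowest of the stretch, and the promoters after KLK4 lie mostly above 0, which is so with TMM scaling and not with library totals for most kallikreins.

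The kallikrein family as a whole held 16 promoters, counting the pseudogene KLKP1, and all were tested. Of these 3 rose (18.8%, against 1.16% of all promoters) and 0 fell (against 1.31%). In both overexpression libraries 13 were higher, against 24.8% of all, and 2, KLK4 and KLK8, were lower, against 24.9%. The median log2 fold change of the 16 was 0.59 and 14 were above 0, but with library totals the median was −0.20 and 4 were above 0, and with loess scaling it was 0.20 with 12 above 0 and 0 called. Relative to the median of all promoters 14 of the 16 were higher with library totals as well. Log2 fold changes followed abundance over the whole table, with class medians of 0.39, 0.13, −0.05 and −0.13 from the lowest to the highest abundance. In the lowest class 44.1% of all promoters were higher in both overexpression libraries and 7.33% lower, and in the next 35.3% were higher and 11.9% lower. The 11 kallikreins in the lowest class had a median of 0.60 and 10 were above the class median, and the 5 in the next class had a median of 0.20 and 3 above it.

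The kallikreins that rose were KLK6, KLK9 and KLK14, on few counts. KLK6, a protease made in brain and skin, had 23 and 18 counts in control against 17 and 17 counts in overexpression, and differed by 1.29 on the log2 scale (SE 0.367, edgeR adjusted p 0.0306). KLK9 had 20 and 16 against 23 and 9, with 1.38 (SE 0.381, edgeR adjusted p 0.0258). KLK14, a protease of the outer skin, had 19 and 16 against 17 and 12, with 1.28 (SE 0.393, edgeR adjusted p 0.0477). In the 4 fits that each left out 1 library these 3 stayed higher and none passed the threshold, with adjusted p from 0.0532 to 0.455. The log2 fold changes with library totals were 0.51, 0.57 and 0.49 in the same order, none past the threshold. KLK8, a protease of brain and skin, was with KLK4 the other kallikrein lower in overexpression, with 119 and 93 counts in control against 32 and 17 counts in overexpression. In log2 terms KLK8 differed by −0.55 (SE 0.234, edgeR adjusted p 0.182).

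**Figure D5:**
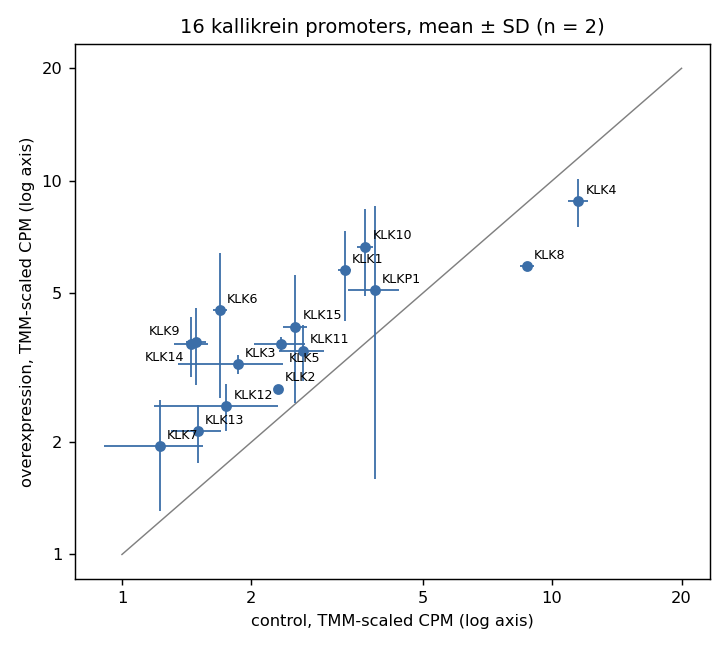
Mean level in overexpression (vertical axis) against mean level in control (horizontal axis) of the 16 kallikrein promoters, both in TMM-scaled CPM on log axes; bars are SD (n = 2) and the line marks equal levels. KLK4 and KLK8, the promoters with the highest levels in control, lie below the line, and the other 14 lie above it with TMM scaling, whereas with library totals 12 of the 16 have a negative log2 fold change.

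Genes related to the 8 by function were read from the same fit. Over all 23407 promoters tested, 2.47% passed the edgeR threshold, and 2023 were higher and 2010 lower at an unadjusted p under 0.05. Of 6 other acid phosphatase promoters, all tested, 0 passed the edgeR threshold and 1 had an unadjusted p under 0.05, with a median log2 fold change of 0.37 and the highest control level at ACP6 (28.5 TMM-scaled CPM). Of 15 enamel genes besides ACP4 and KLK4, 9 were tested and 0 passed the edgeR threshold, with 1 at an unadjusted p under 0.05 and RELT the most open at 21.5. Of 10 partners of SHANK scaffolds, 0 passed the edgeR threshold and 1 had an unadjusted p under 0.05, with HOMER1 the most open at 27.9. Of 7 receptors akin to GPR32, 4 were tested and 0 passed the edgeR threshold, with 1 at an unadjusted p under 0.05 and LTB4R2 the most open at 6.78.

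The promoters whose levels over the 4 libraries were nearest to those of ACP4, by Euclidean distance of log2(TMM-scaled CPM + 0.5), were PYCARD (0.532), TP53I11 (0.541), SNORD14B (0.587), MLLT1 (0.589) and CDC25B (0.599). Of these PYCARD, which encodes an adaptor of the inflammasome, had 225 and 182 counts in control against 39 and 33 counts in overexpression. The choice rests on the same 4 libraries, so it is a description of likeness with no test.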

How the data were processed

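ATAC-seq counts of 2 control and 2 overexpression libraries were analysed, grouped by their labels. As the study's methods state, the authors trimmed reads with trimgalore, aligned them to CHM13 with bowtie2, filtered on pairing and mapping quality, removed duplicates with Picard and counted fragments at their midpoints. The deposited table gave raw counts per promoter, read here as the 2 kb windows that the study describes. No shift of read ends for the transposase was described. The authors' peak lists were not used, since gene positions on CHM13 were not analysed here.

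Promoters were kept with filterByExpr, scaled by TMM and tested in edgeR 4.0.16 (R 4.3.3) by a two-sided quasi-likelihood F-test in its legacy form without covariates. P-values were adjusted by Benjamini-Hochberg over all 23407, with 0.05 as the threshold. Prior degrees of freedom came out infinite, so promoters of like abundance shared 1 dispersion. With 2 libraries against 2 no exact permutation p can be below 0.333. The test was checked on simulated data. Alternatives changed the scaling, the filter, the test (limma 3.58.1, DESeq2 1.42.0), the threshold and the libraries, and added a replicate block. DESeq2 without independent filtering, and the alternatives for SMIM47, CLEC11A, KLK6, KLK9 and KLK14, were chosen after seeing the data.

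RefSeq tables of GRCh38.p14 named 28763 of 28775 promoters and gave gene order and promoter sequences. Of the 8 genes 5 matched a promoter sequence, so no check of base composition against change was run. Python 3.11.15, pandas 2.3.3, scipy 1.17.1, Biopython 1.88 and matplotlib 3.10.9 were used. The reads carry no molecular identifiers and may repeat molecules, so Wilson intervals cover counting error only. The genes named were the 8, the promoters past the threshold, with the highest control level or directly beside the 8 among 20 genes on each side and in the lists, and the 5 nearest to ACP4. SMIM47, C19orf48P, KLK8, GARIN5A, EMC10, the markers and the promoters that fell by at least 1 were named besides these. The members, lists and rules were chosen with earlier results of these data known. Some listed genes are not reported here.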

Additional observations from a re-analysis of the deposited data

How the results depend on the processing

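The causes of these changes were not tested, except that the stricter filters tested fewer promoters. Of all promoters tested 579 passed the threshold, with 1 of the 8 and 4 of the 43 tested neighbours. With library totals these counts were 16325 (51 rose and 16274 fell), 2 (ACP4 and KLK4) and 18. With loess scaling they were 67 (34 rose and 33 fell), 1 and 1. With at least 10 counts in every library they were 368, 1 and 1, and with a mean count of at least 50 they were 218, 1 and 0. DESeq2 called 108 of 2078 promoters with an adjusted p and 0 neighbours, and gave no adjusted p for any of the 8. Without independent filtering it called 52 promoters (41 rose and 11 fell), 1 of the 8 and 0 neighbours. An adjusted p under 0.1 gave 1171, 1 and 8. Leaving out 1 library at a time gave 101 to 205 promoters, 0 to 1 of the 8 and 0 to 0 neighbours, with the lone library of a group assumed to vary like the other group.

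The log2 fold change of ACP4 was negative in every alternative that gave one, from −1.26 to −0.87 with 1 library left out and −1.89 with library totals. Signs turned with library totals for SHANK1 (−0.57), GPR32 (−0.065), KLK1 (−0.056), KLK15 (−0.22) and KLK2 (−0.52), and with loess scaling for SHANK1 (−0.014) and KLK2 (−0.14). Same-numbered libraries deviated with a correlation of 0.05 over 14976 promoters, and the numbers were not read as pairs, of which there are 2. The replicate block gave 483 promoters, 1 of the 8 (ACP4, −1.07) and 3 neighbours, with KLK14 no longer past the threshold (edgeR adjusted p 0.0643). Counts of 7 to 53 per library at the kallikreins other than KLK4 and KLK8 limit what could be detected there.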
